A study of Saccharomyces cerevisiae with 36 samples.

Results

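The histone genes of the budding yeast Saccharomyces cerevisiae were followed through an ethanol shock in laboratory and wild strains. The members were taken by name and not by their measured values, though earlier results of these data were known. All 10 were among the 6295 open reading frames on the arrays: HTA1 (YDR225W) and HTA2 (YBL003C) for histone H2A, HTB1 (YDR224C) and HTB2 (YBL002W) for H2B, HHT1 (YBR010W) and HHT2 (YNL031C) for H3, HHF1 (YBR009C) and HHF2 (YNL030W) for H4, HTZ1 (YOL012C) for the variant H2A.Z and HHO1 (YPL127C) for the linker histone H1.

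Core histones form the octamer on which DNA is wrapped, and cells make most of their core histone mRNA in S phase, when newly replicated DNA has to be packed. In yeast each core histone is encoded by a pair of genes that lie in 4 divergent pairs, HTA1 with HTB1, HTA2 with HTB2, HHT1 with HHF1 and HHT2 with HHF2, and the members of each pair are neighbours in the annotation used here. HTZ1 is transcribed outside this S-phase programme, and its product replaces H2A in nucleosomes beside promoters. HHO1 encodes a protein that binds DNA between nucleosomes. The H3 genes encode the same protein, as do the H4 genes, so the paralogues are close copies. Probe sequences were not used here, so signal from one paralogue on the other's probe cannot be told apart from its own.

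RNA from log-phase cultures in YPD, a rich medium, at 30 °C was compared on arrays with 2 dyes. The ethanol groups, each sampled after 30 min in 5% ethanol by volume and set on the array against unstressed cells of the same strain, were M22 (3 arrays), YPS163 (3), the YPS163 mutants hap1D (3) and msn2D (3), YPS163 MATa (2 used of 3) and DBY8268 (3). DBY8268 is the laboratory strain of the S288c background, M22 a vineyard isolate and YPS163 an isolate from an oak. The names hap1D and msn2D are read as deletions of HAP1, a heme-responsive transcription factor, and of MSN2, a general stress transcription factor. hap1D is a MATa strain, and the labels name msn2D without a mating type, so its comparison with YPS163 MATa may also span mating types. The sample titles give no ploidy for any strain. Log-phase arrays without ethanol, 3 per comparison, set the wild strains M22 and YPS163 each against DBY8268, and the mutant hap1D against its parent YPS163 MATa. Further single arrays of M22, YPS163 and DBY8268 were taken at 15, 45 and 60 min in 5% ethanol. Nothing in the labels says whether a strain's cultures came from more than 1 clone.

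Each value below is a log2 ratio, ethanol over unstressed or first-named strain over second-named strain, so a value of -1 is a 2-fold lower level. The base and the direction are readings of the values and are likely, not stated. Among spots of the 90 genes below -4 in M22 over DBY8268, 30.2% were empty on the ethanol arrays of M22 and 3.7% on those of DBY8268. On log-phase arrays 13.7% of spots were empty for the 39 genes above 3.5 in ethanol, and 2.42% for the 133 below -2. The hap1D log-phase ratios were turned so that HAP1 lay at -3.47 ± 0.61 (SD, n = 2). HAP1 had no value on any hap1D ethanol array and MSN2 none on any msn2D array. YPS163 MATa ethanol array 3 was left out because its column sits 1 position out of place, with a correlation with arrays 1 and 2 of 0.164 as deposited and 0.747 once moved. Rose, fell, higher and lower are used for genes at an adjusted p under 0.05 in limma, over all open reading frames tested. A ratio measures RNA of a whole culture, so fewer cells in S phase and less histone mRNA per cell cannot be told apart.

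What did ethanol do to the histone genes at 30 min? The H2A and H2B genes fell in all 6 strains and mutants, and HTZ1 passed in none. The H3 and H4 genes fell in the wild strains M22 and YPS163, and none of the 4 passed in DBY8268. In M22, 9 of 10 members fell, against 29.7% of all open reading frames tested. In YPS163, 9 of 10 fell, against 30% of all. In DBY8268, 5 of 10 fell, against 31% of all. No member rose in any of these strains. With each array scaled to the same median absolute deviation 5 members fell in M22, where HHT1 (adjusted p = 0.196), HHT2 (0.131), HHF2 (0.0532) and HHO1 (0.06) no longer passed, and in YPS163 HHT2 no longer passed (0.0553). Under the same scaling HTB2 did not pass in DBY8268 (-0.55, adjusted p = 0.0527) or in YPS163 MATa (-0.64, adjusted p = 0.0734).

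HTA1 had the lowest mean of the H2A and H2B genes in M22, YPS163 and DBY8268. Its log2 ratios were -0.83, -1.61 and -1.25 in M22, -1.66, -1.86 and -1.86 in YPS163, and -0.90, -1.24 and -0.89 in DBY8268. All 3 YPS163 arrays lay below all 3 DBY8268 arrays, while M22 overlapped DBY8268. The other groups of the YPS163 background also overlapped DBY8268: hap1D (-1.40 to -0.71), msn2D (-1.16 to -0.91) and YPS163 MATa (-1.36 to -0.93). The means were -1.23 ± 0.39 in M22, -1.79 ± 0.12 in YPS163 and -1.01 ± 0.20 in DBY8268 (SD, n = 3 each), with adjusted p of 4.22e-07, 2.4e-09 and 6.06e-06. In YPS163 this was 3.47-fold lower than in unstressed cells, and 5.1% of all open reading frames tested had a lower ratio.

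HTA2, the other H2A gene, stood at -0.77, -1.55 and -1.23 in M22, at -1.22, -1.50 and -1.59 in YPS163 and at -0.66, -0.88 and -0.76 in DBY8268. Again YPS163 and DBY8268 did not overlap. The mean was -1.18 ± 0.39 in M22, -1.44 ± 0.19 in YPS163 and -0.77 ± 0.11 in DBY8268. Of the H2B genes, HTB1 averaged -0.94 ± 0.43 in M22, -1.11 ± 0.43 in YPS163 and -0.63 ± 0.10 in DBY8268, and HTB2 averaged -1.15 ± 0.48, -1.03 ± 0.43 and -0.71 ± 0.15 in the same order of strains. All were below 0 on every array of these strains, and all 9 means of these 3 genes passed, at adjusted p of 0.000899 or less.

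HHT2, an H3 gene, had ratios of -0.15, -0.96 and -0.65 in M22, of -0.34, -0.97 and -0.74 in YPS163, and of 0.41, 0.25 and 0.17 in DBY8268. Every wild-strain array was below 0 and every DBY8268 array above 0. It fell in M22 to a mean of -0.59 ± 0.41 (adjusted p = 0.00519, and 0.0952 without array 2) and in YPS163 to -0.68 ± 0.32 (adjusted p = 0.00166), and averaged 0.28 ± 0.12 in DBY8268 (adjusted p = 0.167).

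Its neighbour HHF2, an H4 gene, stood at -0.16, -1.17 and -1.07 in M22, at -0.28, -1.31 and -1.18 in YPS163 and at 0.34, -0.07 and 0.10 in DBY8268. The ranges of the wild strains and DBY8268 did not overlap, and array 1 was the mildest in both wild strains. Means were -0.80 ± 0.56 in M22 (adjusted p = 0.00114), -0.92 ± 0.56 in YPS163 (adjusted p = 0.000315) and 0.12 ± 0.21 in DBY8268 (adjusted p = 0.598).

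HHF1, the other H4 gene, had -0.30, -1.37 and -1.13 in M22, -0.33, -1.36 and -1.35 in YPS163 and -0.20, -0.21 and -0.08 in DBY8268. Here too the wild strains lay below DBY8268 on every array. The means were -0.93 ± 0.56 in M22, -1.01 ± 0.59 in YPS163 and -0.16 ± 0.07 in DBY8268, with adjusted p of 0.000447, 0.000211 and 0.499.

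HHT1, the other H3 gene, had the widest spread among replicates of the 10 members in YPS163 and DBY8268, but not in M22. It had -0.36, -1.02 and -0.95 in M22, -0.21, -1.39 and -1.86 in YPS163 and -0.98, -0.95 and 0.24 in DBY8268. DBY8268 array 3 stood apart from the other 2 arrays of its group, and the strains overlapped. HHT1 fell in M22 (-0.78 ± 0.36, adjusted p = 0.0203) and YPS163 (-1.15 ± 0.85, adjusted p = 0.0013), and its mean of -0.56 ± 0.70 in DBY8268 did not pass (adjusted p = 0.0879). It passed in DBY8268 without array 3 (-0.965, adjusted p = 0.0123), and in M22 the call was lost without array 2 (adjusted p = 0.118) or array 3 (adjusted p = 0.0956).

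The variant gene HTZ1 lay between -0.26 and 0.44 on every 30 min array. It stood at 0.44, -0.07 and 0.23 in M22, at 0.13, 0.15 and 0.17 in YPS163 and at 0.18, -0.26 and 0.12 in DBY8268. Means were 0.20 ± 0.26, 0.15 ± 0.02 and 0.01 ± 0.24, with adjusted p of 0.107, 0.229 and 0.921. Without M22 array 2 HTZ1 passed as higher in M22, at 0.335 (adjusted p = 0.0241). Set against the mean of the core genes on the same array, HTZ1 was above it on 17 of 17 arrays of all 6 strains and mutants, by 0.28 to 1.56. Here and below a core mean takes the core genes with a value on the array. HHT2 had a value on only 1 of the YPS163 MATa arrays used, and HTA2 and HHF1 each on 2 of 3 msn2D arrays.

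The linker gene HHO1 fell in all 3 strains. Its ratios were -0.95, -0.17 and -0.13 in M22, -1.48, -0.71 and -0.52 in YPS163, and -1.17, -0.70 and -0.63 in DBY8268. Array 1 was the lowest in each strain, whereas the core genes were mildest on array 1 in both wild strains. The means were -0.42 ± 0.46 in M22 (adjusted p = 0.0279, and 0.459 at -0.15 without array 1), -0.90 ± 0.51 in YPS163 (adjusted p = 5.51e-05) and -0.83 ± 0.29 in DBY8268 (adjusted p = 0.000136).

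**Figure D1:**
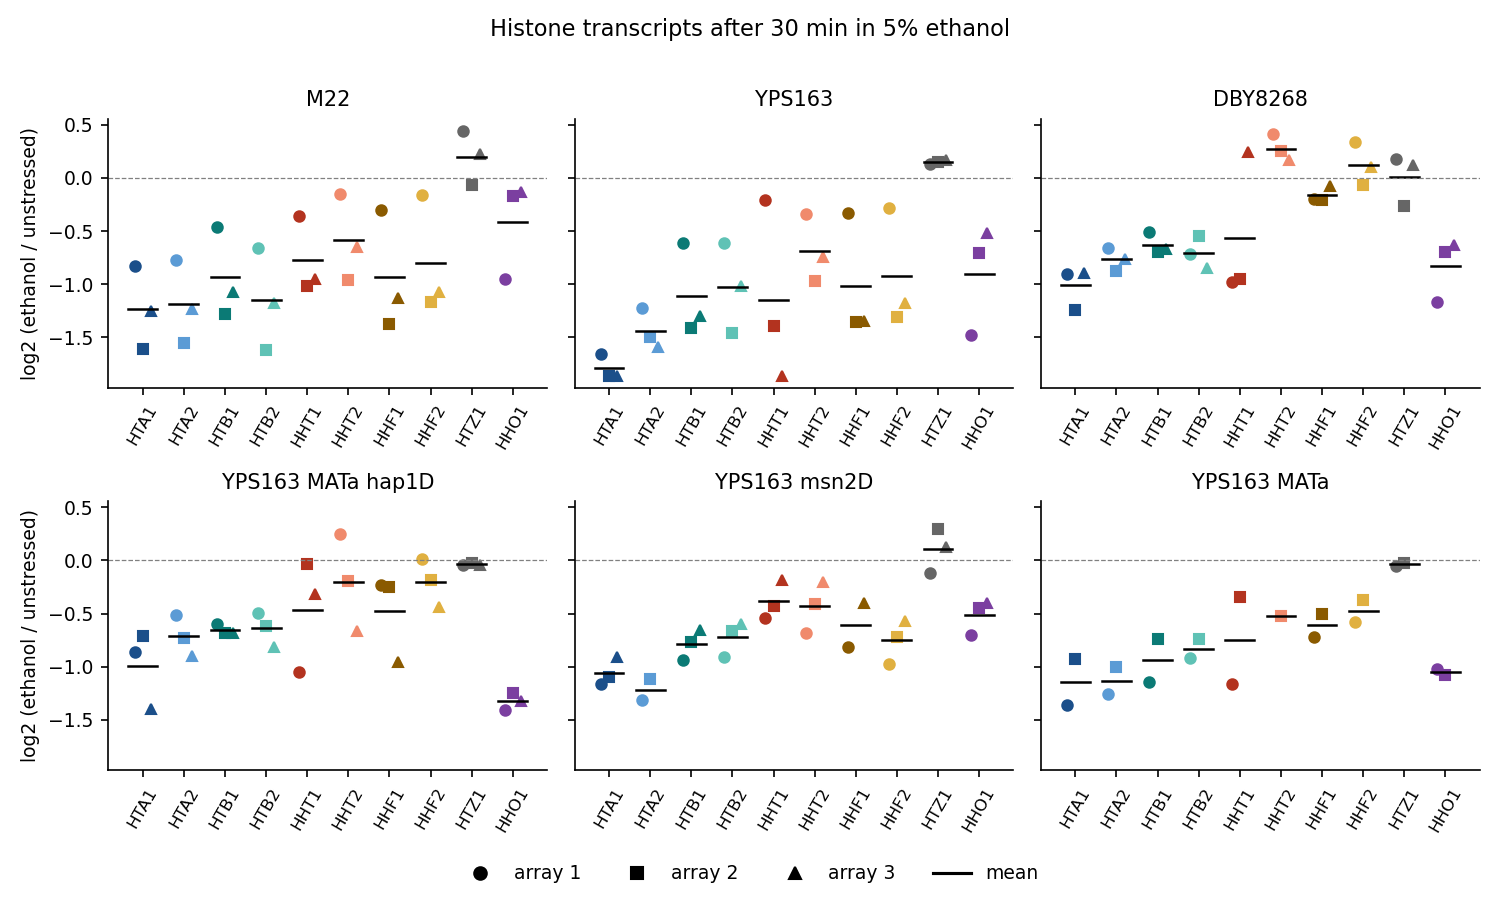
Log2 ratio of ethanol over unstressed cells (vertical axis) for each of the 10 histone genes (horizontal axis) after 30 min, in 6 panels for M22, YPS163 and DBY8268 and for hap1D, msn2D and YPS163 MATa. Each symbol is 1 array and each black bar the mean. HTA1, HTA2, HTB1 and HTB2 lie below 0 in every panel, HHT2 lies above 0 on all 3 DBY8268 arrays and below 0 on all M22 and YPS163 arrays, and HTZ1 stays near 0.

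The mean of the H2A and H2B genes was below that of the H3 and H4 genes on 17 of 17 arrays at 30 min. The gap was -0.16 to -0.90, and each mean took the genes with a value on the array. In M22 the H2A and H2B mean was -1.13 ± 0.42 and the H3 and H4 mean -0.77 ± 0.47 (SD, n = 3). YPS163 had -1.34 ± 0.28 and -0.94 ± 0.57, and DBY8268 had -0.78 ± 0.07 and -0.08 ± 0.18. On the 9 log-phase arrays, where no ethanol was involved, the same gap ran from -0.24 to 0.06. These are descriptions with no test.

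Did the wild strains respond differently from the laboratory strain? In the difference M22 minus DBY8268, 2 of 10 members were lower, both from the HHT2 and HHF2 pair, against 2.79% of all open reading frames tested. HHT2 differed by -0.86 ± 0.24 (SE, adjusted p = 0.021) and HHF2 by -0.92 ± 0.27 (adjusted p = 0.0285). HHF1 differed by -0.77 ± 0.28 and did not pass (adjusted p = 0.0835), and the H2A and H2B genes differed by -0.45 to -0.22, with adjusted p of 0.225 to 0.564. HHO1 was the member with the highest difference, 0.42 ± 0.22 (adjusted p = 0.263).

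In YPS163 minus DBY8268, 5 of 10 members were lower, against 5.51% of all. These were HHF2 by -1.05 ± 0.27 (SE, adjusted p = 0.0117), HHT2 by -0.96 ± 0.24 (adjusted p = 0.00958), HHF1 by -0.85 ± 0.28 (adjusted p = 0.0468), HTA1 by -0.78 ± 0.21 (adjusted p = 0.0142) and HTA2 by -0.67 ± 0.21 (adjusted p = 0.0362). For each of the 5 genes no YPS163 array overlapped a DBY8268 array. HTB1, HTB2 and HHT1 differed by -0.48 ± 0.20, -0.32 ± 0.22 and -0.59 ± 0.39 and did not pass, and HHO1 (-0.07 ± 0.22) and HTZ1 (0.14 ± 0.15) differed least. Both differences share the DBY8268 arrays, and with each array scaled to the same median absolute deviation 0 members passed in either. YPS163 minus M22 called 0 of 10 members in limma, with 2 at an unadjusted p under 0.05, against 5.96% of all called, and 1 member without M22 array 1.

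The arrays of each wild strain also differed among themselves. The core mean was -0.46 on M22 array 1, against -1.32 and -1.07 on arrays 2 and 3, and -0.66 on YPS163 array 1, against -1.41 and -1.36. Set against the DBY8268 array of the same number, the core mean differed by -0.06, -0.78 and -0.72 in M22 and by -0.26, -0.86 and -1.02 in YPS163, so array 1 showed the smallest gap in both. HHT2, HHF2, HHF1 and HTA2 were lower in both wild strains at every number. At number 1 in M22 the gap was -0.56 for HHT2 and -0.50 for HHF2, but -0.10 for HHF1 and -0.11 for HTA2. M22 minus DBY8268 called 5 members without M22 array 1, 1 without DBY8268 array 2 and 0 without DBY8268 array 1, M22 array 2 or M22 array 3. YPS163 minus DBY8268 called 1 without DBY8268 array 1, 3 without DBY8268 array 2 or 3 and 2 without YPS163 array 2 or 3.

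Same-numbered ethanol arrays of these 3 strains deviated together, as given with the processing. Fitted with the number as a block on these 9 arrays alone, 2 members were lower in M22 minus DBY8268 and 4 in YPS163 minus DBY8268, where HHF1 no longer passed (adjusted p = 0.0554). Fitted on the same arrays without the block, 0 members passed in either difference, with 2 and 5 at an unadjusted p under 0.05. In the 3-strain fit HHT1 also did not pass in the M22 response, at an adjusted p of 0.07 without the block and 0.0719 with it, and HHO1 did not pass there without the block.

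**Figure D2:**
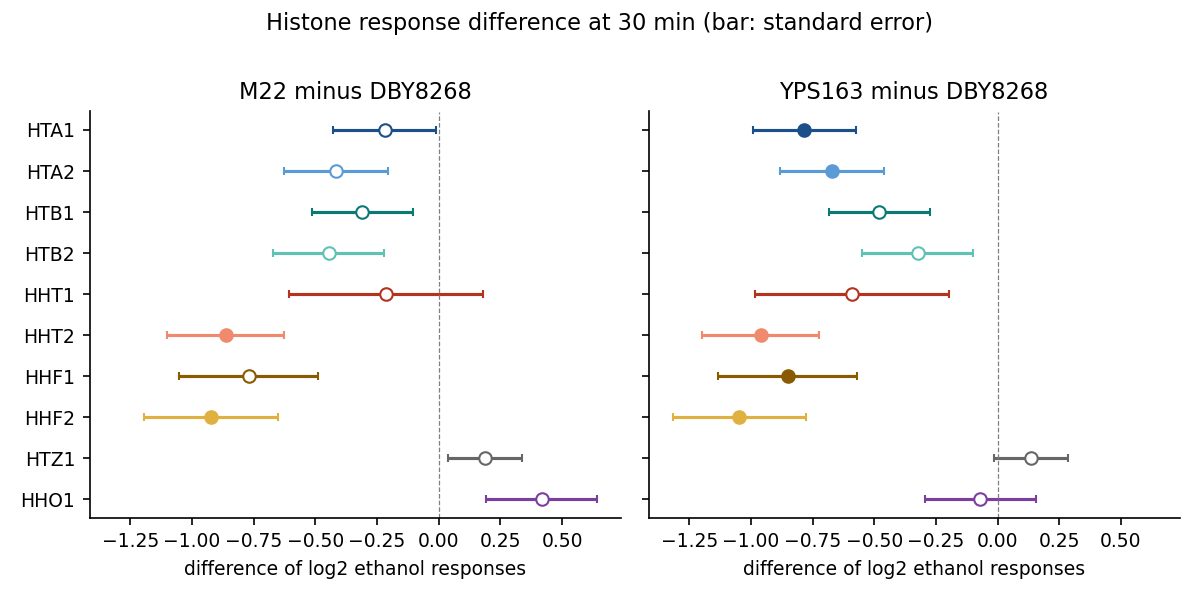
Difference between strains in the 30 min ethanol response (log2, horizontal axis) for each of the 10 histone genes (vertical axis). The panels show M22 minus DBY8268 and YPS163 minus DBY8268, with bars of 1 SE from limma. Filled points passed an adjusted p of 0.05: HHT2 and HHF2 in M22, and HTA1, HTA2, HHT2, HHF1 and HHF2 in YPS163, all below 0.

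Did loss of HAP1 or MSN2, or the MATa background, change this? The 4 H2A and H2B genes and HHO1 fell in each of hap1D, msn2D and YPS163 MATa. No member passed the test of a difference from YPS163 MATa. In hap1D, 6 of 10 members fell, against 27.7% of all. In msn2D, 7 of 10 fell, against 22.4% of all. In YPS163 MATa, 6 of the 9 members tested fell, against 27.6% of all, and HHT2 was not tested because only array 2 had a value, -0.52. With array 3 of YPS163 MATa used, 7 members passed as deposited, HTB1 not among them (-0.39, adjusted p = 0.171), and 9 once it was moved.

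HTA1 stood at -0.86, -0.71 and -1.40 in hap1D, at -1.16, -1.10 and -0.91 in msn2D and at -1.36 and -0.93 in YPS163 MATa. All 3 groups overlapped. HTA1 averaged -0.99 ± 0.36 in hap1D and -1.06 ± 0.13 in msn2D (SD, n = 3 each) and -1.15 ± 0.30 in YPS163 MATa (n = 2). HTA2 averaged -0.71 ± 0.20 in hap1D, -1.22 ± 0.13 in msn2D (n = 2 with a value) and -1.13 ± 0.18 in YPS163 MATa, and the H2B genes averaged between -0.94 and -0.64 in the 3 groups.

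Of the H3 and H4 genes, HHF1 fell in hap1D (-0.48 ± 0.42, adjusted p = 0.0484), stood at -0.60 ± 0.29 in msn2D (n = 2, adjusted p = 0.0519) and fell in YPS163 MATa (-0.61 ± 0.16, adjusted p = 0.0428). HHF2 fell in msn2D (-0.75 ± 0.20, adjusted p = 0.00306) and averaged -0.20 ± 0.23 in hap1D (adjusted p = 0.389) and -0.47 ± 0.15 in YPS163 MATa (adjusted p = 0.0968). HHT2 fell in msn2D (-0.43 ± 0.24, adjusted p = 0.0458) and averaged -0.20 ± 0.46 in hap1D (adjusted p = 0.334). HHF1 lost its call without any 1 array of hap1D or YPS163 MATa, HHT2 lost its call without msn2D array 1 or 2, and these calls do not show that the mutants differ. HHT1 passed in none of the 3 groups, at -0.47 ± 0.53 in hap1D, -0.38 ± 0.18 in msn2D and -0.75 ± 0.58 in YPS163 MATa.

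HHO1 was lowest in hap1D, where it had -1.41, -1.25 and -1.32, against -0.70, -0.45 and -0.40 in msn2D and -1.02 and -1.08 in YPS163 MATa. The groups did not overlap, with hap1D below and msn2D above YPS163 MATa. The mean was -1.33 ± 0.08 in hap1D, which 6.5% of all open reading frames tested lay below, -0.52 ± 0.16 in msn2D and -1.05 ± 0.04 in YPS163 MATa. The difference was -0.28 ± 0.25 for hap1D minus YPS163 MATa (SE, adjusted p = 0.953) and 0.53 ± 0.25 for msn2D minus YPS163 MATa (adjusted p = 0.204), so neither passed. HTZ1 stood at -0.03 ± 0.01 in hap1D, 0.10 ± 0.21 in msn2D and -0.04 ± 0.02 in YPS163 MATa.

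For the differences, limma called 0 of 9 members in hap1D minus YPS163 MATa (0 at an unadjusted p under 0.05), against 0.0926% of all called. All 7 core genes tested there had a difference above 0, from 0.13 to 0.42. For msn2D minus YPS163 MATa limma called 0 of 9 (1 unadjusted), against 8.21% of all. It called 0 of 9 in YPS163 MATa minus YPS163 (1 unadjusted), against 0.74% of all, and the widest of these was HTA1 at 0.65 ± 0.23 (adjusted p = 0.377). The differences from YPS163 MATa share its 2 arrays, and without array 1 of msn2D 4 of the 8 members still tested passed in its response, HHO1 not among them (-0.425, adjusted p = 0.0976).

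Did the strains differ before ethanol? In log phase M22 over DBY8268, HTZ1 was lower, the only member called (1 of 10, against 17.7% of all called lower). Its ratios were -0.38, -0.38 and -0.13, a mean of -0.30 ± 0.14 (SD, n = 3, adjusted p = 0.0387). All 3 arrays lay below 0. The call was lost without array 1, without array 2, and when each array was centred on its median. The core genes lay at or above 0 in the mean, with HHT1 at 0.43 ± 0.05, HHF1 at 0.36 ± 0.14, HTB1 at 0.33 ± 0.05 and HHT2 lowest at 0.01 ± 0.13, and their adjusted p ran from 0.0934 to 0.983. With the spread taken from these 3 arrays alone, 3 members passed.

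For YPS163 over DBY8268 in log phase, limma called 0 of 10 members (0 unadjusted), against 22.9% of all. The core mean was 0.08, -0.16 and 0.43 on the 3 arrays, and array 2, with the dyes exchanged, was the one below 0. For hap1D over YPS163 MATa it called 0 of 10 (0 unadjusted), against 2.94% of all, and the core mean was 0.16, 0.23 and -0.14.

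The log-phase ratio and the 2 responses together give the level in ethanol, strain against strain. For M22 over DBY8268 in ethanol limma called 0 of 10 members (2 unadjusted), against 13.2% of all, and for YPS163 over DBY8268 0 of 10 (4 unadjusted), against 15.2% of all. HHT2 came nearest in both, at -0.86 ± 0.29 in M22 (SE, adjusted p = 0.0597) and -0.87 ± 0.29 in YPS163 (adjusted p = 0.0514). HHF2 was at -0.71 ± 0.33 in M22 (adjusted p = 0.175) and -0.83 ± 0.33 in YPS163 (adjusted p = 0.0972). HTA1 was at -0.06 ± 0.25 in M22 (adjusted p = 0.921) and -0.68 ± 0.25 in YPS163 (adjusted p = 0.0798). Their log-phase ratios were 0.01 in M22 and 0.09 in YPS163 for HHT2, and 0.22 and 0.21 for HHF2. For hap1D over YPS163 MATa in ethanol it called 0 of 9 (0 unadjusted), against 0.243% of all. Without M22 array 1, 2 members passed in M22 over DBY8268, and without YPS163 ethanol array 1, 4 passed in YPS163 over DBY8268. Without YPS163 log-phase array 3, 3 passed in YPS163 over DBY8268.

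How did the response unfold in time? Each time is 1 array per strain, with no replicate and no test, and the 30 min array numbered 1 is set beside them; the labels do not say whether it came from the same culture. In M22 the core mean was -0.43 at 15 min, -0.46 at 30 min, -1.16 at 45 min and -1.62 at 60 min. In YPS163 it was 0.15, -0.66, -1.30 and -0.54 at the same times, and in DBY8268 -0.71, -0.40, -0.50 and -1.32. The lowest value came at 60 min in M22 and DBY8268 and at 45 min in YPS163, after which the YPS163 value was closer to 0 again.

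Members at least 2-fold lower numbered 2, 0, 6 and 8 in M22 at 15, 30, 45 and 60 min, against 12.3%, 14.8%, 15% and 13.7% of all open reading frames. They numbered 1, 3, 8 and 0 in YPS163, against 15.9%, 17.5%, 18.4% and 16.1%. In DBY8268 they numbered 3, 1, 1 and 6, against 11.1%, 17.6%, 16.6% and 16.4%. The replicates at 30 min show how far single arrays can stray: M22 arrays 2 and 3 at 30 min (-1.32 and -1.07) lay on either side of its single array at 45 min (-1.16).

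The H3 and H4 genes opened above 0 in YPS163, and 2 of the 4, HHT2 and HHF2, did in M22. The same 2 genes stood barely above 0 in DBY8268, at 0.02 and 0.03. In YPS163 at 15 min HHF2 stood at 1.04, HHF1 at 0.96, HHT1 at 0.66 and HHT2 at 0.43, and HHF2 was the only member at least 2-fold higher there, against 13.6% of all. In M22 at 15 min HHT2 and HHF2 stood at 0.55 and 0.52, while HHT1 and HHF1 stood at -0.79 and -0.16. By 60 min in M22 all 4 lay between -1.81 and -1.50. In DBY8268 HHT2 ran 0.02, 0.41, 0.05 and -0.66 and HHF2 0.03, 0.34, -0.20 and -1.37 from 15 to 60 min. HTA1 was already at -1.53 in M22, -0.66 in YPS163 and -1.16 in DBY8268 at 15 min, and at 60 min stood at -1.96, -0.78 and -1.86 in those strains.

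HTZ1 was highest at 15 or 30 min in each strain. Its ratio was 0.63, 0.44, -0.08 and -0.28 at 15, 30, 45 and 60 min in M22, 0.54, 0.13, -0.28 and -0.37 in YPS163, and 0.11, 0.18, -0.20 and -0.50 in DBY8268. Its lowest value came at 60 min in all 3 strains. HHO1 was -1.08, -0.95, -0.97 and 0.66 in M22, -1.73, -1.48, -0.89 and 0.23 in YPS163, and -0.68, -1.17, -1.22 and -0.53 in DBY8268, with its highest value at 60 min in all 3.

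**Figure D3:**
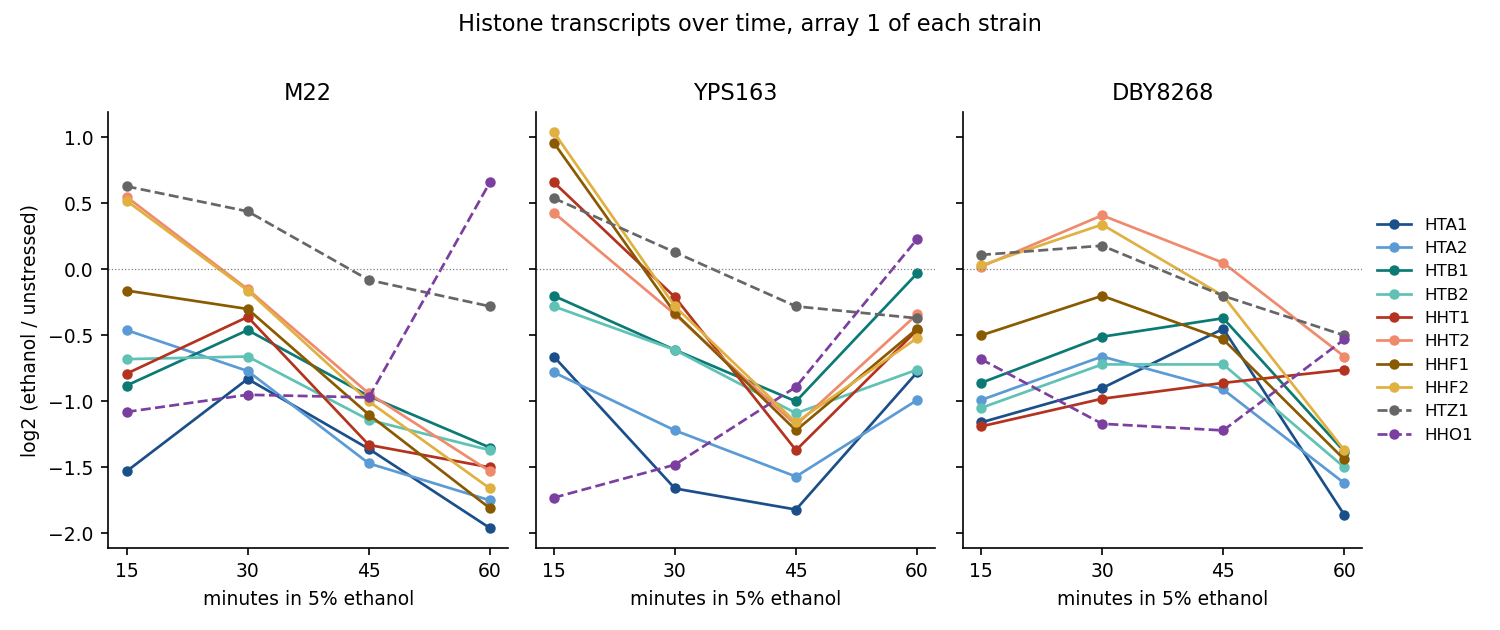
Log2 ratio of ethanol over unstressed cells (vertical axis) at 15, 30, 45 and 60 min (horizontal axis) on 1 array per time in M22, YPS163 and DBY8268, 1 line per histone gene, with HTZ1 and HHO1 dashed. In M22 the core genes end between -1.96 and -1.35 at 60 min while HHO1 ends at 0.66.

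HHO1 and the core genes often stood apart on the same array. YPS163 at 15 min had the highest core mean of the 26 ethanol arrays, 0.15, with HHO1 at -1.73, its lowest value. M22 at 60 min had the lowest core mean, -1.62, with HHO1 at 0.66, its highest value. Over the 17 arrays at 30 min HHO1 minus the core mean ran from -0.98 to 1.15, with both signs. It averaged 0.53 ± 0.89 in M22, 0.24 ± 0.92 in YPS163 and -0.40 ± 0.32 in DBY8268 (SD, n = 3 each).

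**Figure D4:**
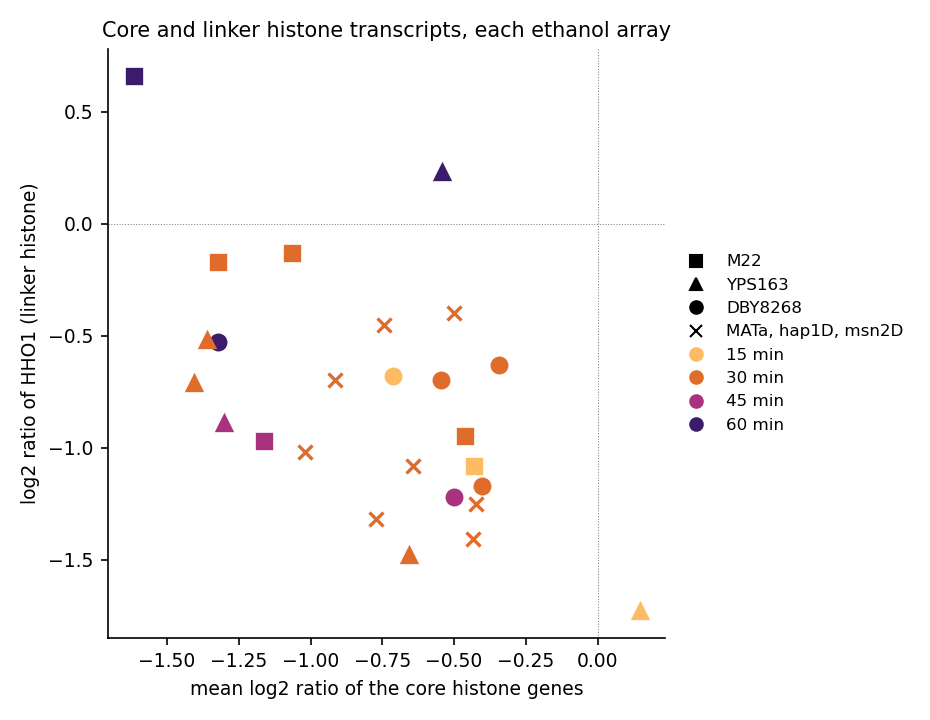
Mean log2 ratio of the core histone genes with a value (horizontal axis) and log2 ratio of HHO1 (vertical axis) on each of the 26 ethanol arrays, coloured by time. The arrays run from YPS163 at 15 min (core 0.15, HHO1 -1.73) to M22 at 60 min (core -1.62, HHO1 0.66).

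Did the copies of a gene respond alike? HTA1 had the lower ratio than HTA2 on 12 of 16 arrays at 30 min, with a mean difference of -0.16 ± 0.20 (SD, n = 16 arrays of 6 strains and mutants). A two-sided permutation test that flips the sign of each array's difference gave p = 0.00562, adjusted to 0.0112 over the 6 differences computed. HHF1 was lower than HHF2 on 14 of 16 arrays, by -0.14 ± 0.19 (permutation p = 0.00549, adjusted 0.0112). The 2 exceptions were the msn2D arrays with both values, where the difference was 0.16 and 0.17. Both calls pool arrays of different strains, and both were lost at adjusted p of 0.0688 without DBY8268, and of 0.0576 without hap1D.

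HTB1 and HTB2 differed by 0.01 ± 0.17 (17 arrays, permutation p = 0.777), and HHT1 and HHT2 by -0.31 ± 0.59 (16 arrays, permutation p = 0.065, adjusted 0.0975). The H3 pair had the widest spread, from -1.39 to 0.34, and 9 arrays were below 0 and 7 above. By group, HTA1 minus HTA2 averaged -0.05 ± 0.02 in M22, -0.36 ± 0.09 in YPS163 and -0.24 ± 0.12 in DBY8268 (SD, n = 3 each). It averaged -0.28 ± 0.27 in hap1D (n = 3), and ran from 0.02 to 0.15 in msn2D and from -0.10 to 0.07 in YPS163 MATa, so not every group had HTA1 lower.

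Over all 35 arrays used, log phase included, the 8 core genes followed each other. Pearson's r of each core gene with the mean of the other core genes ran from 0.789 for HHT2 to 0.95 for HHF1. For HTZ1 r was 0.049 and for HHO1 0.086. These arrays share strains, most share the effect of ethanol, and the labels do not say whether any share reference RNA, so r is a description. A value on at least 30 arrays was present for 5047 open reading frames, the histone members among them. Outside the members, the 5 most like the core mean began with REX4 (r = 0.862), an RNA exonuclease gene, and YML108W (0.856). Next came IZH2 (0.85), a zinc homeostasis gene, and EFG1 (0.841), a gene of ribosome maturation. Last of the 5 was SEC22 (0.84), which encodes a protein of vesicle fusion between endoplasmic reticulum and Golgi. REX4 averaged -1.47 in M22, -1.89 in YPS163 and -0.83 in DBY8268 at 30 min.

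Genes that act on histones or mark the cell cycle were set beside the members. In the list of histone gene regulators, 5 of 10 tested fell and 2 rose in M22, 2 fell and 2 rose in YPS163, and 3 fell and 2 rose in DBY8268. Over all open reading frames 32.3% rose in M22, 30.4% in YPS163 and 28.6% in DBY8268, beside the shares that fell given above. HIR1, a subunit of the HIR complex that represses histone genes outside S phase, fell by 0.48 (log2) in YPS163 (adjusted p = 0.00702) and by 0.62 in DBY8268 (adjusted p = 0.000953). SWI4, the DNA-binding subunit of the SBF factor of late G1, rose by 0.65 in YPS163 (adjusted p = 0.000255) and 0.52 in DBY8268 (adjusted p = 0.00192). RTT106, a histone chaperone, fell by 0.97 in M22 (adjusted p = 0.000673).

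Among histone chaperones and acetyltransferases, 5 of 12 fell and 0 rose in M22, 6 fell and 2 rose in YPS163, and 5 fell and 0 rose in DBY8268. HIF1, a chaperone that joins the histone acetyltransferase HAT1 and HAT2, stood at -1.08 in M22, -1.36 in YPS163 and -0.98 in DBY8268, and fell in each. For the strain differences 2 of the 12 were higher and 1 lower in M22 minus DBY8268, where 9.35% of all were higher, and 2 higher and 2 lower in YPS163 minus DBY8268, where 10.4% of all were higher. HAT2 was lower in both, by -0.59 ± 0.14 in M22 minus DBY8268 (SE, adjusted p = 0.00704) and -0.80 ± 0.14 in YPS163 minus DBY8268 (adjusted p = 0.000512), and SPT16, of the FACT complex, was higher in both, by 0.65 ± 0.13 (adjusted p = 0.0018) and 0.82 ± 0.13 (adjusted p = 0.000147). Of the 15 genes for H2A.Z exchange and Cse4 loading, 3 fell and 3 rose in M22, 3 fell and 0 rose in YPS163, and 3 fell and 5 rose in DBY8268. The list's median was 0.04 in M22, -0.02 in YPS163 and 0.01 in DBY8268. SWC7, of the SWR1 complex that deposits H2A.Z, fell in each, to -1.01 in M22, -0.83 in YPS163 and -1.25 in DBY8268. Other genes of the list rose, among them SWC5 (1.24) and VPS71 (0.60) in M22 and SCM3 (1.13) and YAF9 (0.89) in DBY8268.

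Lists of cell cycle genes were counted in the same way. In the list of G1/S and DNA replication genes 11 of 19 fell in M22, 9 of 19 in YPS163 and 11 of 19 in DBY8268, with 2 rising in each, and the list's median ratio was -0.77, -0.44 and -0.73 against 0.03, 0.02 and 0.02 over all genes tested. POL30, the replication clamp, fell by 1.73 in M22, 1.21 in YPS163 and 1.48 in DBY8268. Of the G2/M genes 7 of 9 fell in M22, 8 of 9 in YPS163 and 9 of 9 in DBY8268, CLB2, a mitotic cyclin, among them with -1.46, -0.88 and -1.80. Of 10 M/G1 genes, 3 fell in M22, 2 in YPS163 and 4 in DBY8268, near the 29.7%, 30% and 31% of all open reading frames that fell.

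In the time course the G1/S list's median and the core histone mean took different courses, on 1 array per time with no test. On M22's single arrays the G1/S list's median was -1.02, -0.82, -0.60 and 0.28 at 15, 30, 45 and 60 min, while the core mean ended at -1.62. In YPS163 the median was -0.91, -0.39, 0.17 and 0.365, below the core mean at 15 min (0.15) and above it at 60 min (-0.54). In DBY8268 the median was -0.70, -0.94, -1.06 and -0.71. Between strains, 2 of 19 G1/S genes were higher and 1 lower in M22 minus DBY8268, against 9.35% and 2.79% of all. In YPS163 minus DBY8268, 4 were higher and 1 lower, against 10.4% and 5.51% of all. CLN2, a G1 cyclin, was higher in YPS163 minus DBY8268 (1.67 ± 0.28, SE, adjusted p = 0.000288). CLN1 was higher in both YPS163 (1.63 ± 0.25, adjusted p = 0.000162) and M22 (1.16 ± 0.25, adjusted p = 0.00434) minus DBY8268. The list's median difference was 0.06 in M22 minus DBY8268, against 0.09 over all genes tested, and 0.30 in YPS163 minus DBY8268, against 0.06. DPB2 of the same list was lower in M22 minus DBY8268 (-0.91 ± 0.20, adjusted p = 0.00412). The part of the cell cycle in the histone values was not tested.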

How the data were processed

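The values are those the authors deposited in 1 table, taken as log2 ratios between the channels because they carry both signs, with array medians of -0.08 to 0.17. How they were normalised or filtered is not given in the sources used here. Per the labels, arrays numbered 2 carry exchanged dyes, and the design text states biological triplicates and a single time course. Arrays held 4981 to 6093 values, with no intensities used, so precision is set by the number of arrays. Names came from RefSeq, where 5830 open reading frames matched.

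In limma 3.58.1 (R 4.3.3), lmFit and eBayes fitted 1 mean per group to 26 arrays, and 18 contrasts were tested where each group had at least 2 values. Benjamini-Hochberg adjustment ran over all open reading frames of a contrast. The log-phase ratios of hap1D were multiplied by -1 and YPS163 MATa ethanol array 3 was left out. Sign-flip tests used up to 100000 permutations. The code was tested on simulated data. The members, the 6 gene lists and the alternatives were chosen with earlier results of these data known.

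All 10 members were named. From each list up to 4 called genes of largest size could be named per contrast, with HAP1, MSN2 and the 5 open reading frames most like the core mean. Over all groups 29 of 100 pairs of same-numbered arrays deviated together at r over 0.1, so numbers do not pair the arrays in general. Among the 30 min ethanol arrays of M22, YPS163 and DBY8268 all 9 such pairs did, at r of 0.22 to 0.648, and the 3-strain fits with the number as a block were added after seeing the data. Alternatives were centring, scaling, filters, robust eBayes, a replicate block, smaller fits, each array left out, and the omitted array put back.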

Additional observations from a re-analysis of the deposited data

Results flagged for a closer look

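In 7 results the ethanol response of a histone gene differed between strains by the test of the difference itself (limma, adjusted p under 0.05). In M22 minus DBY8268 these were HHF2 at -0.92 and HHT2 at -0.86. In YPS163 minus DBY8268 they were HHF2 at -1.05, HHT2 at -0.96, HHF1 at -0.85, HTA1 at -0.78 and HTA2 at -0.67. HHT2 and HHF2 recur in both, and both differences use the same DBY8268 arrays. With each array scaled to the same median absolute deviation 0 members passed in either difference, which ends all 7 calls.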

How the results depend on the processing

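No result reversed its sign once called. Scaling each array to the same median absolute deviation gave 5 lower members in the M22 response (9 as reported), 0 in M22 minus DBY8268 and in YPS163 minus DBY8268, 3 in log phase M22 over DBY8268 and 1 in log phase hap1D over YPS163 MATa. Restricting the test to open reading frames measured on all fitted arrays gave 1 in M22 minus DBY8268 and 2 in YPS163 minus DBY8268. Fitting the contrast's arrays alone gave 0, 0 and, in log phase M22, 3. The 3 strains fitted alone gave 0 in both differences. Centring on the median gave 3 in YPS163 minus DBY8268, 0 in log phase M22 and 1 member at least 2-fold lower in YPS163 at 60 min (0 as reported). For the level in ethanol of YPS163 over DBY8268, 1 member passed with the replicate block and 1 with at least 3 values per group. With the replicate block in the 26-array fit no other count of members moved by over 1.5 times. Leaving out 1 array at a time gave 8 to 8 members in the M22 response (not the same members: without array 2 HHT1 and HHT2 were lost and HTZ1 passed as higher), 9 to 9 in YPS163, 5 to 6 in DBY8268, 5 to 5 in hap1D, 4 to 7 in msn2D and 4 to 5 in YPS163 MATa. It gave 0 to 5 in M22 minus DBY8268, 1 to 6 in YPS163 minus DBY8268, 0 to 1 in YPS163 minus M22 and in log phase M22, and 0 to 2 and 0 to 4 for the ethanol levels of M22 and YPS163 over DBY8268. With 1 YPS163 MATa array left, that array is assumed to vary like the other groups. HTA1 minus HTA2 lost its call at -0.15 without DBY8268, -0.12 without YPS163, -0.14 without hap1D and -0.20 without the arrays numbered 2, and HHF1 minus HHF2 at -0.11 without DBY8268, -0.11 without hap1D and -0.16 without the arrays numbered 2. Of the values of single genes, 2085 kept their side of the threshold, 30 passed it newly and 84 no longer passed. The causes were not tested.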
